A study of Mus musculus with 24 samples.

Results

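The comparison described here is the effect of a palmitic acid-rich diet on the stroma of tumours that carried PLKO, a non-targeting short hairpin RNA vector. It uses 6 of the 24 arrays of the series: PLKO PA-rich (3 arrays) and PLKO control diet (3 arrays), chosen by hairpin and diet as the sample titles give them, and it covers all 11844 genes above a filter on dim signal. The tumours were orthotopic xenografts of SCC25, a human oral squamous carcinoma cell line, in NOD-SCIDγ (NSG) mice, which lack mature lymphocytes. The cells analysed are labelled as the neural fraction of the tumour stroma. The hairpins sat in the human tumour cells, while the arrays measured mouse RNA. The other 18 arrays came from the same design with hairpins against EGR2 (shEGR2_40.9 and shEGR2_38.9) or GAL (shGAL), and 4 hairpins on 2 diets gave 8 groups of 3 arrays. The series calls the 3 arrays of a group technical replicates and does not say whether they came from separate mice, so p-values measure only the spread between these arrays, which may be technical. Scan batch went one to one with replicate number within PLKO, so a difference within a replicate number is also a difference within a scan batch. The sex and age of the mice, the composition of the diets and the length of feeding are not given in the labels.

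Palmitic acid is a saturated fatty acid that cells take up, oxidise, desaturate, and build into triglycerides, phospholipids and, through serine palmitoyltransferase, ceramides and other sphingolipids. Interferon signalling switches on genes with antiviral products through dedicated transcription factors, and the acute phase response adds secreted proteins such as serpins, lipocalins and pentraxins. Schwann cells, the glia of peripheral nerves, can enter a repair state after nerve injury in which they secrete matrix, growth factors and cytokines. Keratinocytes that leave the basal layer of the epidermis or enter the hair follicle make cornified envelope proteins, desmosomal cadherins and barrier lipids.

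Median levels per array lay between 6.76 and 6.81 on the log2 scale in the 6 PLKO arrays and between 6.71 and 6.81 in all 24. The library labelled shEGR2_38.9 control replicate 3 stood apart from its group. Its mean correlation with its group was 0.978, against 0.987 and 0.986 for replicates 1 and 2. Its Gapdh probe sets differed by 0.76 (3′ minus 5′ end, log2), against -0.02 in replicates 1 and 2. Those of actin differed by -0.44, against -0.20 and -0.18. This library touches these results only through the spread of the shared model and through the comparison with the other hairpins. Basal keratinocyte markers were bright: Krt14 averaged 13.22 in PA-rich and 13.21 in control arrays, and Krt5 averaged 12.9 in PA-rich and 12.92 in control arrays. Among Schwann cell markers, Erbb3 averaged 10.99 in PA-rich and 11.02 in control arrays, and Sox10 averaged 7.55 in PA-rich and 7.47 in control arrays. S100b, at 5.92 in PA-rich and 5.90 in control arrays, and the neuronal Nefl, at 5.12 in PA-rich and 5.14 in control arrays, lay under the filter level of 6.273. Levels of different probe sets cannot be set against each other as RNA amounts. Keratinocyte markers were thus bright in a fraction labelled neural, and whether human tumour transcripts bound these mouse probe sets was not tested. In bulk RNA, fewer cells of a type and less RNA per cell cannot be told apart.

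On the PA-rich diet, 140 genes changed in PLKO stroma, 44 of them higher and 96 lower than on the control diet. The falls included interferon-induced genes, secreted innate defence proteins, hair and cornification proteins, the clock gene Per2 and the stress factor Xbp1. The rises included the hyaluronan synthase Has2, the matrix protein Tnc, the collagenase Mmp13, the clock repressor Nr1d2 and the phosphatidate phosphatase Lpin2. Of the 11844 genes tested, 1.18% were called, 0.371% as higher and 0.811% as lower, by limma at a Benjamini-Hochberg adjusted p under 0.05. Without adjustment, 1313 genes had a p under 0.05, and for lists with 0 calls the members at that unadjusted limma p are given beside the count. All 140 called genes had PA-rich and control arrays that did not overlap, which held for 2475 genes or 20.9% of those tested, 1252 of them higher and 1223 lower. The median change over all genes was 0.01, with 6307 genes higher and 5532 lower on the PA-rich diet whatever their p. A change beyond 1 in log2 units was seen for 10 of the called genes, 6 of them at an adjusted p under 0.01. Leaving out PA-rich replicate 1, 2 or 3 gave 56, 77 or 88 called genes, and leaving out control replicate 1, 2 or 3 gave 80, 88 or 94. Without shEGR2_38.9 control replicate 3, which enters only through the shared spread, there were 269 called genes.

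The diet separated the 6 arrays on the first principal component, which held 33.6% of their variance. The PA-rich arrays lay at 11.08, 5.44 and 7.60, against -11.50, -7.15 and -5.47 for the control arrays. The second component held 24.1% and set control replicate 1, at 12.29, apart from control replicates 2 and 3 at -8.14 and -8.70. Over the 11844 genes, the effects of replicate numbers 1 and 2 correlated at r = 0.184, those of 1 and 3 at 0.257 and those of 2 and 3 at 0.332. These are correlations across genes, which are not independent, and each effect shares no array with the others. The median standard deviation of a gene was 0.078 between PA-rich arrays and 0.091 between control arrays.

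**Figure D1:**
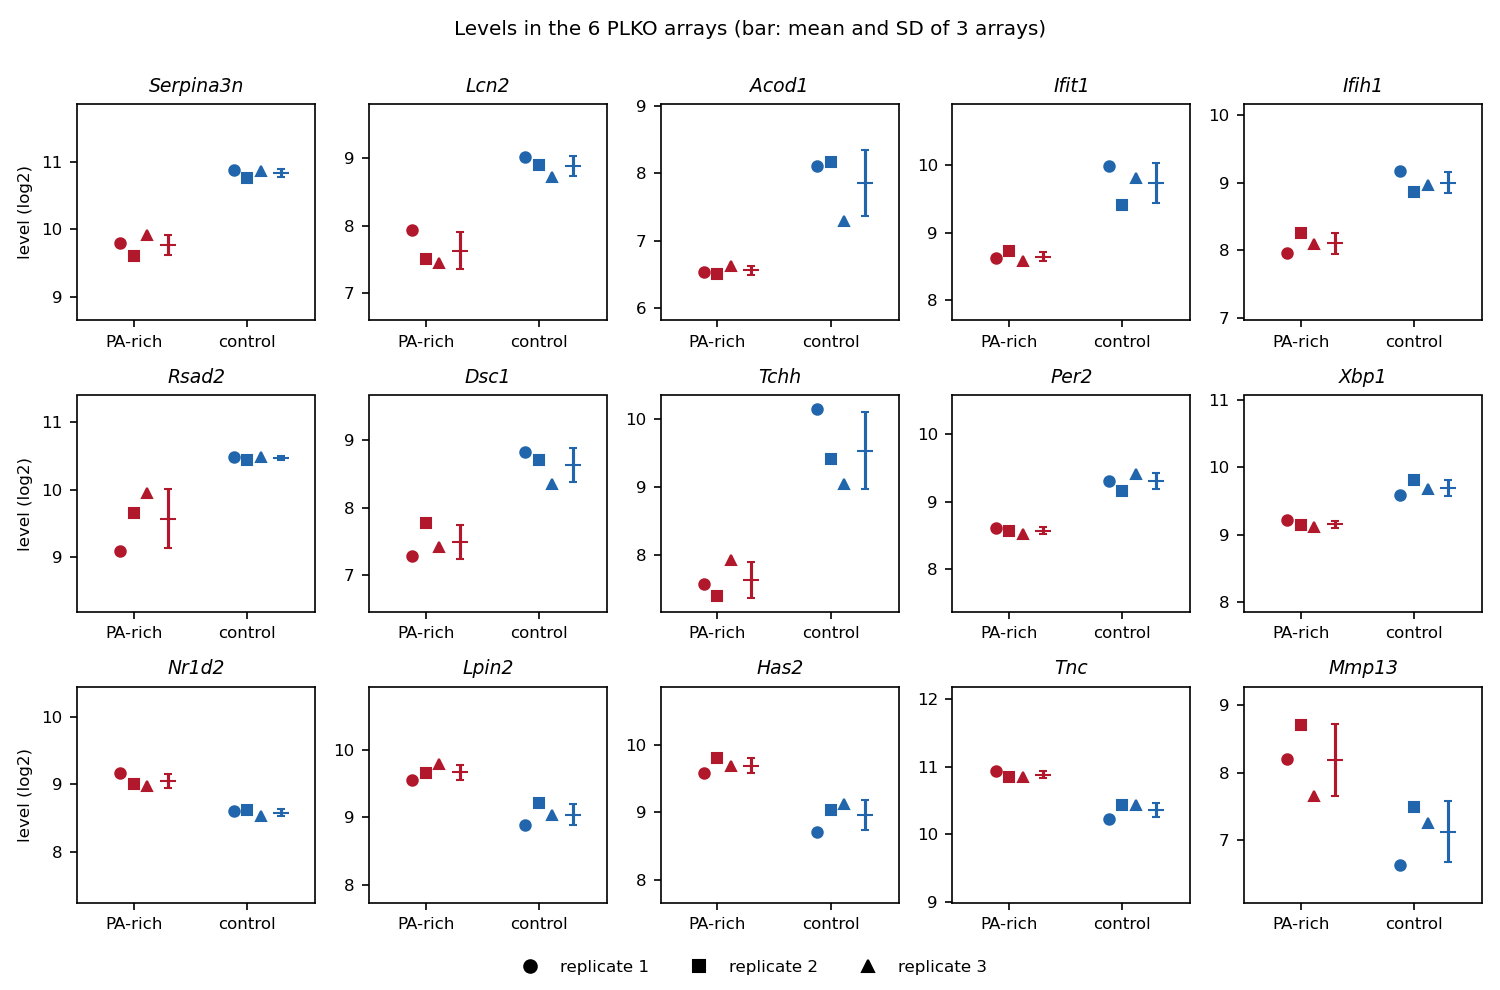
Log2 RMA level (vertical axis) of genes the text describes, with 1 point per array marked by replicate number, PLKO PA-rich arrays on the left and PLKO control arrays on the right of each panel, and a bar for the mean and SD of each 3 arrays. Serpina3n lay at 9.61 to 9.91 in PA-rich arrays, all below the control arrays at 10.76 to 10.87.

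Of the interferon-induced genes, 4 fell on the PA-rich diet, namely Ifit1, Ifih1, Rsad2 and Cxcl10. The 300-base promoter windows of these 4 genes, which RefSeq places in build GRCm38.p6 as 250 bases before to 50 after the gene start, are shown because each holds the core of the interferon-stimulated response element, GAAANNGAA. The windows are chr19:34640639-34640938 on the plus strand for Ifit1, chr2:62646206-62646505 on the minus strand for Ifih1, chr12:26456403-26456702 on the minus strand for Rsad2 and chr5:92348840-92349139 on the minus strand for Cxcl10, each written 5′ to 3′ in the direction of the gene with matches to the core on either strand in capitals.
Ifit1: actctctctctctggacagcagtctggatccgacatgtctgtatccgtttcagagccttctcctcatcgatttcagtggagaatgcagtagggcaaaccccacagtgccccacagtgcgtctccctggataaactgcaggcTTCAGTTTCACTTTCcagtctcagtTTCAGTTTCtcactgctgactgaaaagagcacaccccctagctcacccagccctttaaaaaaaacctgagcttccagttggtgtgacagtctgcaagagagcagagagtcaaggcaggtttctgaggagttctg
Ifih1: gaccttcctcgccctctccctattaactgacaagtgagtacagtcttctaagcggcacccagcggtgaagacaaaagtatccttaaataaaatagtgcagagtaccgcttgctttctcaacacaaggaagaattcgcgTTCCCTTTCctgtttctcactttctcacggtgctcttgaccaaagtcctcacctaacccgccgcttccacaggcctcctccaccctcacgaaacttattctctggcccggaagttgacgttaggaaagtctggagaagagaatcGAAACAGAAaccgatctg
Rsad2: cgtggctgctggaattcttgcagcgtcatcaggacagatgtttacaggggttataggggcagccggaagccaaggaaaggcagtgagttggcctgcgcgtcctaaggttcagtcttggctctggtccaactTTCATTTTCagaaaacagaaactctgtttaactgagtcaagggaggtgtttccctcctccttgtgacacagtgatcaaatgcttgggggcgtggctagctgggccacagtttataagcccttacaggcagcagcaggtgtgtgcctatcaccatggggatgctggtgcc
Cxcl10: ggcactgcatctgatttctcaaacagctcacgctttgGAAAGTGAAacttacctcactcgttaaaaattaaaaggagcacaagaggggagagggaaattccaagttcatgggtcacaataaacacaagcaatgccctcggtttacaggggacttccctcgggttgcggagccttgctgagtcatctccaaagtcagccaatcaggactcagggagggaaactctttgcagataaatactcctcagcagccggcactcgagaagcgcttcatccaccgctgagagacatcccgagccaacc
The core was found 3 times in the Ifit1 window, with overlapping matches joined in 1 run of capitals, 2 times in that of Ifih1 and 1 time each in those of Rsad2 and Cxcl10. It was present in 8.56% of all 32851 promoter windows of this length, or 9.76% of the 27025 genes with a window, and in 10 of the 21 interferon response genes with a window (47.6%). Besides the 4 genes shown, these were Ddx58, Eif2ak2, Gbp2, Ifit3, Oas3 and Stat2, which were not called. A match describes the letters of a window and shows no binding.

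Ifit1, whose product binds viral RNA that lacks the host's cap methylation, had levels of 8.63, 8.73 and 8.59 in the PA-rich arrays, against 9.99, 9.42 and 9.81 in the control arrays. The groups lay well apart, and Ifit1 fell by 1.09 on the log2 scale (SE 0.13, limma adjusted p = 9.08e-05). Within replicate numbers 1, 2 and 3 its change was -1.36, -0.69 and -1.22. Ifih1, which encodes the double-stranded RNA sensor MDA5, had levels of 7.96, 8.25 and 8.09 in PA-rich arrays, against 9.17, 8.86 and 8.97 in control arrays. Every PA-rich array was below every control array, and Ifih1 fell by 0.90 (SE 0.10, adjusted p = 5.63e-05). Rsad2, which encodes the antiviral enzyme viperin, had levels of 9.09, 9.65 and 9.95 in PA-rich arrays, against 10.49, 10.44 and 10.49 in control arrays. Its control arrays were nearly equal while its PA-rich arrays spread, and it fell by 0.91 (SE 0.15, adjusted p = 0.0027; 0.0861 in a model of the 6 PLKO arrays alone). Cxcl10, an interferon-induced chemokine, had levels of 10.71, 10.63 and 10.90 in PA-rich arrays, against 11.23, 11.18 and 11.32 in control arrays. It fell by 0.50 (SE 0.11, adjusted p = 0.023), and its call ended without PA-rich replicate 1 or 2 (adjusted p = 0.106 and 0.112) and without control replicate 1 or 3 (adjusted p = 0.0608 and 0.0994).

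Of the 30 interferon response genes measured, 0 rose and 4 fell (13.3%), and the median change was -0.07, against 0.01 over all genes. Their PA-rich and control arrays lay apart for 13 genes that were lower and 2 that were higher on the PA-rich diet. Over all 11844 genes the arrays lay apart for 1223 that were lower and 1252 that were higher. The mean level of the list was 8.75, 8.86 and 8.85 in the PA-rich arrays, against 9.01, 9.0 and 8.98 in the control arrays. Leaving out each array in turn left 3 or 4 calls, a model of the 6 PLKO arrays alone gave 3, and that model with the replicate block gave 0. Macrophage markers, whose cells also express interferon genes, had a mean of 6.92, 6.91 and 6.95 in PA-rich arrays, against 6.96, 6.97 and 6.92 in control arrays, and 11 of the list's genes were under the filter level. Mrc1, the macrophage mannose receptor, fell by 0.70 (adjusted p = 0.0341; up to 0.172 when 1 array was left out), and this was the sole called macrophage marker of 8 measured. The part of macrophages in the interferon genes was not tested.

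Genes of the acute phase and innate defence fell too. Serpina3n, a secreted inhibitor of serine proteases, had levels of 9.80, 9.61 and 9.91 in PA-rich arrays, against 10.87, 10.76 and 10.86 in control arrays. It fell by 1.06 (SE 0.09, adjusted p = 5.08e-07), with nearly equal changes of -1.07, -1.15 and -0.95 in replicate numbers 1, 2 and 3. Lcn2, a secreted protein that binds bacterial iron carriers, had levels of 7.94, 7.51 and 7.44 in PA-rich arrays, against 9.01, 8.90 and 8.72 in control arrays. It fell by 1.25 (SE 0.16, adjusted p = 0.000366), again in every replicate number. Acod1, the enzyme that makes itaconate in activated myeloid cells, had levels of 6.54, 6.51 and 6.63 in PA-rich arrays, against 8.11, 8.17 and 7.29 in control arrays. Its PA-rich arrays sat close to the filter level and control replicate 3 was nearest to them. Acod1 fell by 1.30 (SE 0.27, adjusted p = 0.014), and its call ended without PA-rich replicate 1 or 2 (adjusted p = 0.065 and 0.0571) or control replicate 1 or 2 (adjusted p = 0.0712 and 0.0773). These 3 were the called members of 18 measured acute phase and innate defence genes (16.7%), whose median change was -0.05. Ptx3 differed by -1.43 (adjusted p = 0.156) and Saa3 by -0.77 (adjusted p = 0.707), neither past the threshold.

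Of 20 chemokine and cytokine genes measured beside these, Cxcl14 fell and Il1rn rose. Cxcl14, a chemokine made by epithelium and fibroblasts, had levels of 8.95, 8.94 and 8.97 in PA-rich arrays, against 9.62, 9.90 and 9.85 in control arrays. The PA-rich arrays were nearly equal, and Cxcl14 fell by 0.84 (SE 0.14, adjusted p = 0.0032). Il1r2, a decoy receptor for interleukin-1, had levels of 8.87, 8.68 and 8.65 in PA-rich arrays, against 9.39, 9.52 and 9.60 in control arrays, and fell by 0.77 (adjusted p = 0.0032). Il1rn, the interleukin-1 receptor antagonist, rose by 0.38 (adjusted p = 0.028), a call that ended without PA-rich replicate 1 or 3 (adjusted p = 0.161 and 0.139) or control replicate 2 or 3 (adjusted p = 0.156 and 0.0892). Lcn2, Serpina3n, Cxcl14 and Sdr9c7, an epidermal enzyme described with the barrier genes, kept their calls under every alternative tried, the model of the 6 PLKO arrays with a replicate block included.

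**Figure D2:**
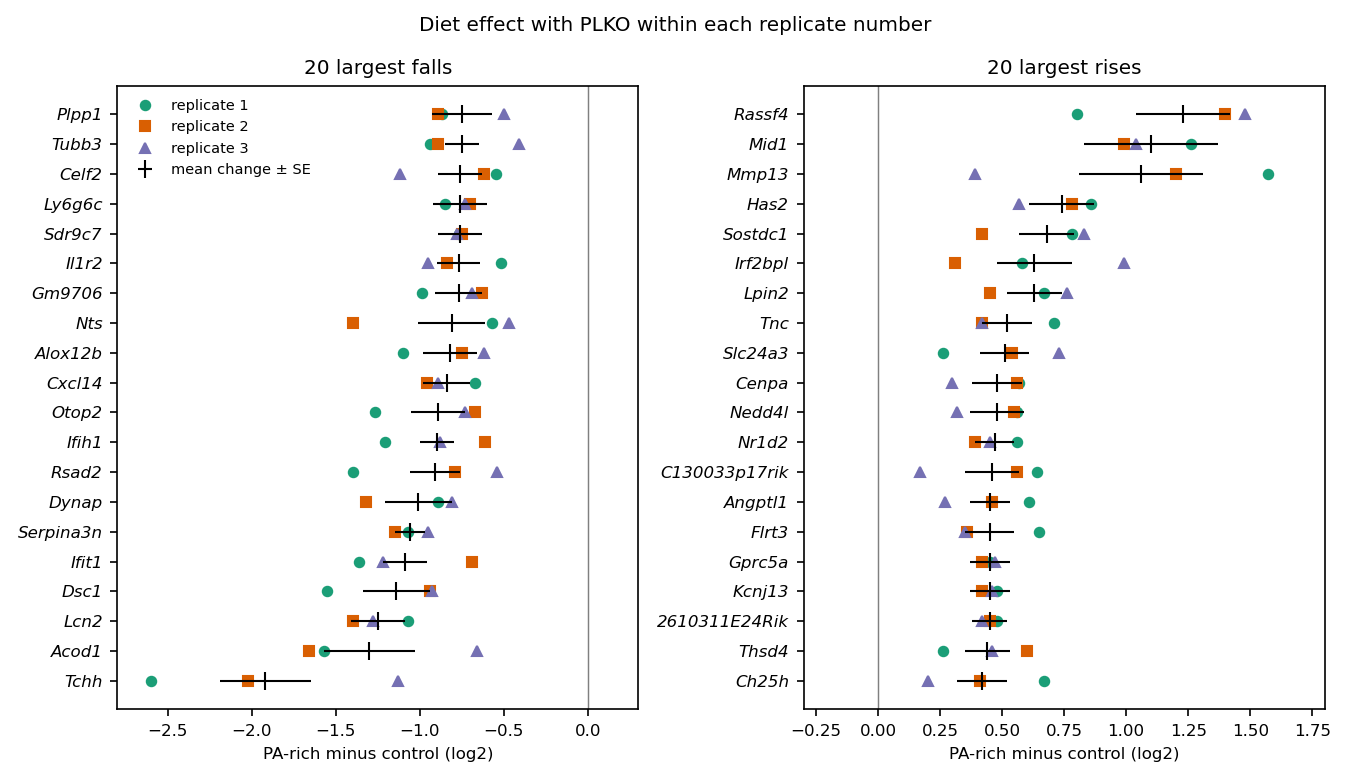
PA-rich minus control difference on the log2 scale (horizontal axis) within each replicate number, which is also the scan batch, for named genes, with 1 point per replicate number and a black tick with its line for the mean change and SE of the model. Serpina3n lay at -1.07, -1.15 and -0.95, while Tchh spread from -2.60 to -1.13.

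Of 24 epidermal barrier and cornification genes, 7 fell and 0 rose (29.2%), with a median change of -0.24 over the list. Sdr9c7, a dehydrogenase that acts on acylceramides of the skin barrier, had levels of 8.78, 8.54 and 8.37 in PA-rich arrays, against 9.55, 9.29 and 9.15 in control arrays. Its change was -0.77, -0.75 and -0.78 in replicate numbers 1, 2 and 3, and it fell by 0.76 (SE 0.13, adjusted p = 0.0027). Dsc1, a desmosomal cadherin of upper epidermal layers, had levels of 7.28, 7.77 and 7.42 in PA-rich arrays, against 8.83, 8.71 and 8.35 in control arrays. Every PA-rich array was below every control array, and Dsc1 fell by 1.14 (SE 0.20, adjusted p = 0.0034). Krtdap, a secreted protein of differentiating keratinocytes, had levels of 9.44, 9.54 and 9.87 in PA-rich arrays, against 10.19, 10.33 and 10.36 in control arrays, and fell by 0.68 (SE 0.10, adjusted p = 0.00136). Alox12b, a lipoxygenase that oxidises barrier lipids, had levels of 9.55, 10.05 and 10.05 in PA-rich arrays, against 10.65, 10.81 and 10.67 in control arrays. It fell by 0.82 (SE 0.16, adjusted p = 0.00736), and the call ended without PA-rich replicate 1 (adjusted p = 0.0764).

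The other called barrier genes were Sprr1a, Sprr1b and Abca12. Sprr1a and Sprr1b, small proline-rich proteins of the cornified envelope, fell by 0.58 (adjusted p = 0.014) and by 0.61 (adjusted p = 0.0329), and Abca12, which loads lipids into lamellar granules, fell by 0.60 (adjusted p = 0.0186). These calls depended on single arrays: without PA-rich replicate 2 the adjusted p was 0.0829 for Sprr1a, 0.077 for Sprr1b and 0.0902 for Abca12. Without PA-rich replicate 1 it was 0.106 for Sprr1a and 0.221 for Sprr1b, and without control replicate 2 it was 0.054 for Sprr1a and 0.17 for Sprr1b. Without control replicate 1 it was 0.0581 for both, without control replicate 3 it was 0.054 for Sprr1b and 0.102 for Abca12, and without PA-rich replicate 3 it was 0.0714 for Abca12.

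The uncalled barrier genes included some with a very large spread between arrays. Repetin, Rptn, a cornified envelope protein, had levels of 5.86, 9.23 and 7.49 in PA-rich arrays, against 11.55, 7.51 and 6.42 in control arrays, so that its difference was -5.69 in replicate number 1, 1.72 in number 2 and 1.07 in number 3. Loricrin, Lor, the main cornified envelope protein, had levels of 7.57, 9.98 and 9.25 in PA-rich arrays, against 11.81, 9.75 and 7.78 in control arrays. Corneodesmosin, Cdsn, had levels of 6.62, 8.05 and 6.96 in PA-rich arrays, against 10.36, 6.94 and 6.43 in control arrays. In all 3 genes control replicate 1 was the highest array and PA-rich replicate 2 the highest of its group, and the groups overlapped. Their limma changes were -0.97 for Rptn (adjusted p = 0.823), -0.85 for Lor (adjusted p = 0.785) and -0.70 for Cdsn (adjusted p = 0.824). The mean level of the 24 genes was 8.74, 9.17 and 9.02 in PA-rich arrays, against 9.81, 9.25 and 9.05 in control arrays, and the median change was -0.45, -0.17 and -0.10 in replicate numbers 1, 2 and 3. Without control replicate 1 the list's median was -0.14, and leaving out each array in turn left 4 to 6 called members, with 4 each without PA-rich replicate 1 or 2.

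Krt10 and Krt1, keratins of the layers above the basal one, differed by -0.20 (adjusted p = 0.833) and by 0.47 (adjusted p = 0.251). Of 15 basal keratinocyte markers 0 were called (2 at an unadjusted p under 0.05, both higher), with a mean level of 11.96, 11.96 and 11.95 in PA-rich arrays, against 11.88, 11.92 and 11.89 in control arrays. Of 20 hair follicle genes measured, 3 fell (15%), while the list's median was 0.04. Tchh, trichohyalin, a structural protein of the inner root sheath, had levels of 7.56, 7.39 and 7.92 in PA-rich arrays, against 10.16, 9.42 and 9.05 in control arrays. It fell by 1.92 (SE 0.27, adjusted p = 0.000559), the largest change of any called gene in this comparison, with differences of -2.60, -2.02 and -1.13 in replicate numbers 1, 2 and 3. Hoxc13, a homeobox factor that controls hair keratin genes, had levels of 8.28, 8.28 and 8.18 in PA-rich arrays, against 8.96, 9.10 and 8.84 in control arrays. It fell by 0.72 (adjusted p = 0.00936), a call that ended without control replicate 2 (adjusted p = 0.0563). Dlx3, a homeobox factor of hair and upper epidermis, fell by 0.53 (adjusted p = 0.00839), without PA-rich replicate 1 its adjusted p was 0.0794, and a further Dlx3 probe set differed by 0.02.

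**Figure D3:**
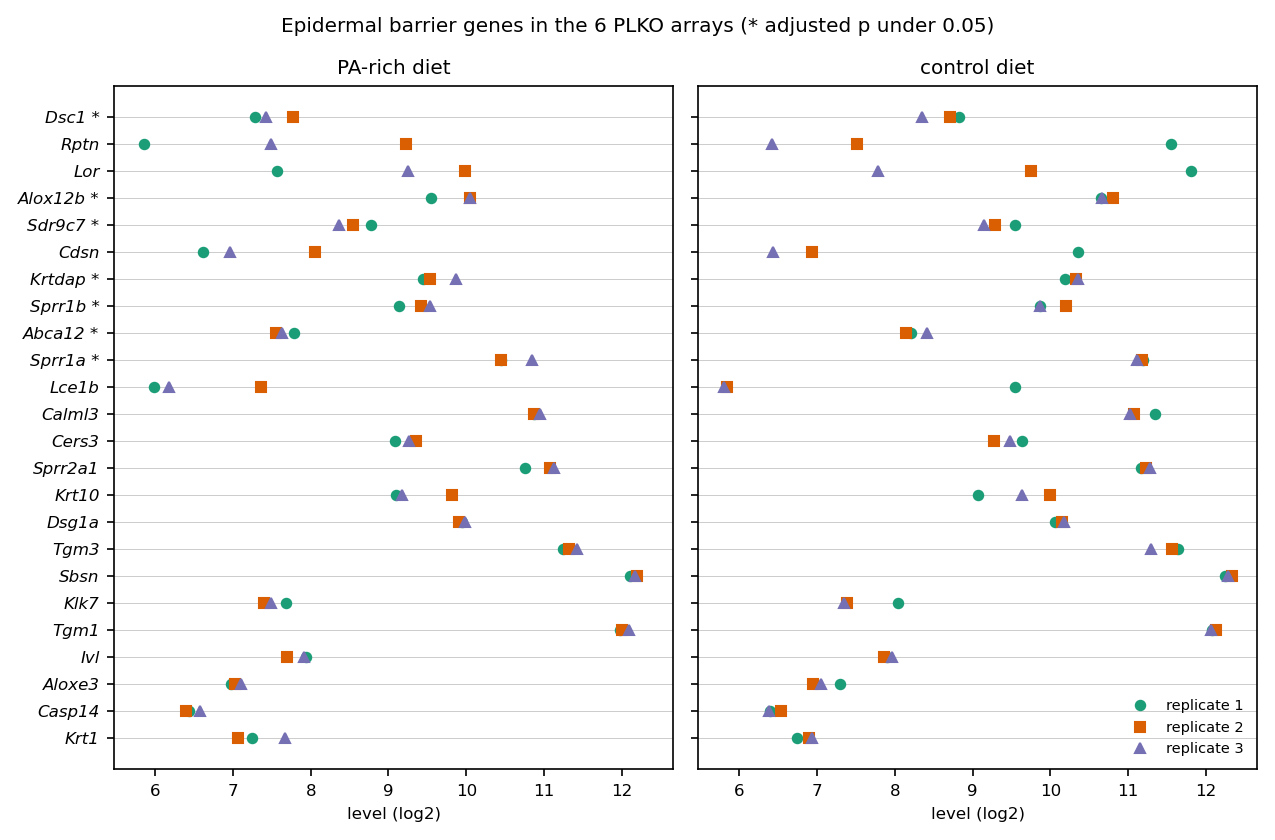
Log2 RMA level (horizontal axis) of each of the 24 measured epidermal barrier and cornification genes (rows), PLKO PA-rich arrays in the left panel and PLKO control arrays in the right panel, with 1 point per array marked by replicate number and an asterisk for called genes. Control replicate 1 had the highest mean level of the list, 9.81, and PA-rich replicate 1 the lowest, 8.74.

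A pair of clock genes changed in opposite directions. Per2, a repressor in the core feedback loop of the circadian clock, had levels of 8.61, 8.57 and 8.52 in PA-rich arrays, against 9.31, 9.16 and 9.41 in control arrays. Its groups were tight and far apart, and it fell by 0.73 (SE 0.10, adjusted p = 0.000671), with -0.70, -0.60 and -0.89 in replicate numbers 1, 2 and 3. Nr1d2, the nuclear receptor REV-ERBβ that represses Arntl, had levels of 9.16, 9.01 and 8.98 in PA-rich arrays, against 8.6, 8.62 and 8.53 in control arrays. It rose by 0.47 (SE 0.08, adjusted p = 0.00491) in every replicate number. Both calls held without any 1 of the 6 arrays. Of 16 clock genes measured, these 2 (12.5%) were called, and the list's median was 0.02. Arntl, the activator of the loop, differed by 0.03, Dbp by 0.05, Per1 by 0.20, Cry1 by -0.34 (adjusted p = 0.102) and Hlf by -0.26 (adjusted p = 0.243), none past the threshold. The time of day at which tissue was taken is not given in the labels, and its part was not tested.

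Some genes of lipid metabolism passed the test, and the called share of each list is given beside 1.18% of all genes. Of 26 genes of fatty acid uptake, oxidation and PPAR response, 0 passed the test (6 at an unadjusted p under 0.05, 4 higher and 2 lower), 20 were higher and the median was 0.07. Among 19 fatty acid synthesis and desaturation genes, 1 rose and 2 fell (15.8%). Scd1, the desaturase that turns palmitate and stearate into monounsaturated fatty acids, had levels of 8.97, 8.99 and 8.96 in PA-rich arrays, against 9.43, 9.25 and 9.54 in control arrays, and fell by 0.43 (adjusted p = 0.028). Its PA-rich arrays were nearly equal, yet its call held only without control replicate 2, with adjusted p up to 0.146 otherwise. Me1, malic enzyme, a source of NADPH for lipid synthesis, fell by 0.46 (adjusted p = 0.00628; 0.0519 without PA-rich replicate 1). Fads2, the desaturase of polyunsaturated fatty acids, had levels of 10.19, 10.22 and 10.21 in PA-rich arrays, against 9.92, 9.81 and 9.81 in control arrays, and rose by 0.36 (adjusted p = 0.00628). With the mean over its probe sets the Fads2 adjusted p was 0.155.

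Among 27 ceramide and sphingolipid genes, 0 rose and 2 fell (7.4%), with a median of -0.03. Sptlc3, a subunit of the serine palmitoyltransferase that joins palmitoyl-CoA to serine, fell by 0.46 (adjusted p = 0.0245), and its call ended without PA-rich replicate 1 or control replicate 1 or 2 (adjusted p = 0.179, 0.113 and 0.0775). Acer1, an alkaline ceramidase of the epidermis, fell by 0.36 (adjusted p = 0.0191), and its call ended without PA-rich replicate 1 or 2 or control replicate 1 or 2 (adjusted p between 0.0763 and 0.0966). With the mean over its probe sets the Acer1 adjusted p was 0.0877. Among 23 triglyceride genes, 1 rose (4.3%). This was Lpin2, lipin 2, which makes diacylglycerol from phosphatidate, with levels of 9.56, 9.66 and 9.79 in PA-rich arrays, against 8.89, 9.21 and 9.03 in control arrays, and a change of 0.63 (SE 0.11, adjusted p = 0.00348). Of 18 cholesterol synthesis and uptake genes, 1 fell (5.6%) and 11 were lower, with a median of -0.20. Fdps, farnesyl diphosphate synthase, had levels of 8.62, 8.82 and 8.80 in PA-rich arrays, against 9.13, 9.01 and 9.08 in control arrays. It fell by 0.33 (SE 0.07, adjusted p = 0.027), without PA-rich replicate 1 or control replicate 1 or 3 its adjusted p was 0.188, 0.107 and 0.0892, and the list's median was -0.19, -0.17 and -0.08 in replicate numbers 1, 2 and 3.

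Among 30 genes of ER stress and the unfolded protein response, Xbp1 alone was called. Xbp1, a transcription factor of the unfolded protein response, had levels of 9.22, 9.15 and 9.12 in PA-rich arrays, against 9.59, 9.82 and 9.68 in control arrays. It fell by 0.54 (SE 0.08, adjusted p = 0.000559), and its other probe sets differed by -0.63, -0.47 and -0.46. Of the list, 22 genes were lower, 13 of them with arrays that did not overlap, and the median was -0.07. Of all 11844 genes, 5532 were lower, 1223 of them with arrays that did not overlap. Nfe2l2, the factor of the oxidative stress response, fell by 0.36 (adjusted p = 0.0384), the sole call among 20 genes of that response. When 1 array was left out, the Nfe2l2 call held only without control replicate 1, with adjusted p up to 0.176 otherwise. With the mean over its probe sets the Nfe2l2 adjusted p was 0.21.

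**Figure D4:**
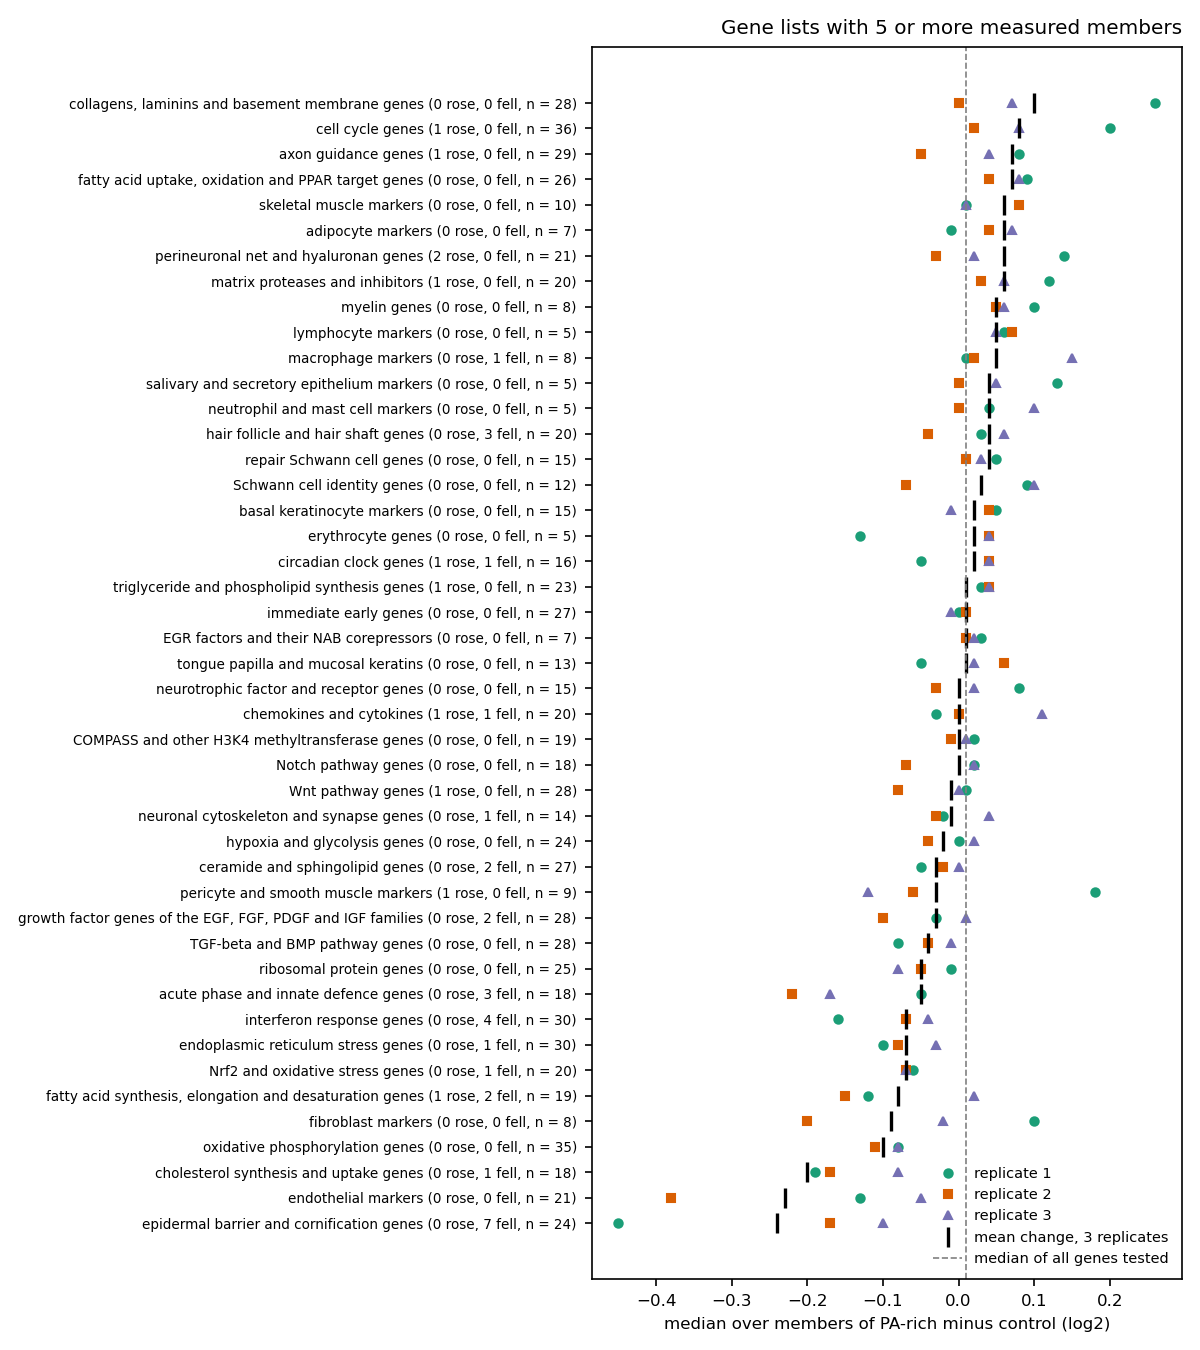
Median PA-rich minus control difference on the log2 scale (horizontal axis) of each gene list over its measured members, with points for the medians within replicate numbers 1, 2 and 3, a black tick for the median of the mean changes and a dashed line at the median of all genes, 0.01. The epidermal barrier list had the lowest overall median, -0.24, and its replicate medians spread from -0.45 to -0.10.

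Genes of the extracellular matrix were among the rises. Has2, an enzyme that makes hyaluronan, had levels of 9.58, 9.81 and 9.69 in PA-rich arrays, against 8.71, 9.03 and 9.13 in control arrays. Every PA-rich array was above every control array, and Has2 rose by 0.74 (SE 0.13, adjusted p = 0.00596). Tnc, tenascin C, a matrix glycoprotein of wounds and tumour stroma, had levels of 10.94, 10.85 and 10.85 in PA-rich arrays, against 10.23, 10.43 and 10.43 in control arrays. It rose by 0.52 (SE 0.10, adjusted p = 0.00752), a call that ended without PA-rich replicate 1 (adjusted p = 0.0533) or control replicate 1 (adjusted p = 0.057). Has2 and Tnc were the called members of 21 perineuronal net and hyaluronan genes (9.5%, against 1.18% of all genes). Of these 21, 17 were higher, against 6307 of all 11844 genes. The list's median was 0.06, with 0.14, -0.03 and 0.02 in replicate numbers 1, 2 and 3, and 8 members had 1 sign in all 3. Mmp13, a collagenase, had levels of 8.20, 8.71 and 7.65 in PA-rich arrays, against 6.63, 7.50 and 7.26 in control arrays. Its difference was 1.57, 1.20 and 0.39 in replicate numbers 1, 2 and 3, and it rose by 1.06 (SE 0.25, adjusted p = 0.0329). The Mmp13 call held only without PA-rich replicate 3 or control replicate 2, and its adjusted p was 0.13 and 0.211 without PA-rich replicates 1 and 2 and 0.17 and 0.068 without control replicates 1 and 3.

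The 28 collagen, laminin and basement membrane genes had 0 calls (3 higher and 1 lower at an unadjusted p under 0.05) and a median of 0.10, with 0.26, 0.00 and 0.07 in replicate numbers 1, 2 and 3. Col1a1, the main chain of type I collagen, had levels of 10.33, 8.93 and 6.82 in PA-rich arrays, against 7.90, 8.80 and 6.49 in control arrays. Col3a1, the chain of type III collagen, had levels of 11.13, 7.88 and 6.12 in PA-rich arrays, against 9.40, 9.57 and 7.14 in control arrays. Both genes spread by several log2 units within a diet, and their groups overlapped. Acta2, smooth muscle actin of pericytes and activated fibroblasts, rose by 0.38 (adjusted p = 0.0289), with adjusted p up to 0.173 when 1 array was left out. The 21 endothelial markers had 0 calls (7 at an unadjusted p under 0.05, all lower), 16 were lower and their median was -0.23, with -0.13, -0.38 and -0.05 in replicate numbers 1, 2 and 3. Their mean level was 8.13, 7.90 and 7.96 in PA-rich arrays, against 8.25, 8.43 and 8.05 in control arrays.

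Further rises of more than 0.6 on the log2 scale were Rassf4, Mid1, Sostdc1 and Irf2bpl. Rassf4, a protein with a Ras-association domain, had levels of 7.94, 7.89 and 8.13 in PA-rich arrays, against 7.14, 6.48 and 6.64 in control arrays, and rose by 1.23 (adjusted p = 0.00135). Sostdc1, which is secreted and blocks BMP and Wnt signals, had levels of 10.20, 10.19 and 10.25 in PA-rich arrays, against 9.42, 9.77 and 9.43 in control arrays, and rose by 0.68 (adjusted p = 0.0032). Both held without any 1 array. Mid1, a ubiquitin ligase on microtubules, had levels of 9.65, 9.67 and 9.64 in PA-rich arrays, against 8.39, 8.68 and 8.6 in control arrays, and rose by 1.10 (adjusted p = 0.0394). Its PA-rich arrays lay far above its control arrays, with an SD of 0.02 in PA-rich and 0.15 in control arrays. The SE of 0.27 came from the shared model, whose spread includes the arrays of the other hairpins. In a limma model of the 6 PLKO arrays alone, the Mid1 adjusted p was 0.00727. In the shared model its call was lost without any 1 of the 6 arrays (adjusted p between 0.0802 and 0.149). The Mid1 call was also lost without the filter on dim probe sets and with the other variance prior. Irf2bpl rose by 0.63 (adjusted p = 0.0372), with an adjusted p of 0.051 with the replicate block and up to 0.211 when 1 array was left out. A further Irf2bpl probe set differed by 0.05, and with the mean over its probe sets the adjusted p was 0.123.

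The other genes among the 20 largest rises changed by 0.42 to 0.51. Slc24a3, a sodium, potassium and calcium exchanger, rose by 0.51 (adjusted p = 0.0103), Kcnj13, a potassium channel, by 0.45 (adjusted p = 0.00327), and Nedd4l, a ubiquitin ligase that removes sodium channels from the membrane, by 0.48 (adjusted p = 0.0247). Cenpa, the centromeric histone, rose by 0.48 (adjusted p = 0.0145). It was the called member of 36 cell cycle genes (2.8%, against 1.18% of all genes). Of these 36, 30 were higher, against 6307 of all 11844 genes. The list's median was 0.08, with 0.20, 0.02 and 0.08 in replicate numbers 1, 2 and 3. Its mean level was 9.50, 9.51 and 9.52 in PA-rich arrays, against 9.29, 9.46 and 9.44 in control arrays. Ch25h, which makes 25-hydroxycholesterol, rose by 0.42 (adjusted p = 0.0304), Flrt3, a cell adhesion protein, by 0.45 (adjusted p = 0.028), and Gprc5a, an orphan receptor of epithelia, by 0.45 (adjusted p = 0.00491). Angptl1 rose by 0.45 (adjusted p = 0.00736), Thsd4 by 0.44 (adjusted p = 0.0103), C130033p17rik by 0.46 (adjusted p = 0.0447) and 2610311E24Rik by 0.45 (adjusted p = 0.0027). Kcnj13, Gprc5a and 2610311E24Rik kept their calls without any 1 array, and the other 8 genes of this group lost theirs without at least 1 array, with adjusted p up to 0.188. With the mean over the probe sets of a gene, the adjusted p was 0.209 for Angptl1, 0.315 for Nedd4l and 0.093 for Cenpa.

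Further large falls were Dynap, Otop2, Nts, Gm9706, Celf2, Ly6g6c, Plpp1 and Tubb3. Tubb3, a beta-tubulin of neurons, had levels of 8.76, 8.82 and 9.08 in PA-rich arrays, against 9.70, 9.71 and 9.50 in control arrays, and fell by 0.75 (adjusted p = 0.00054). It was the called gene of 14 measured neuronal genes, and 12 more neuronal genes, Nefl and Snap25 among them, were under the filter level. Celf2, an RNA-binding regulator of splicing, fell by 0.76 (adjusted p = 0.0027) and Gm9706 by 0.77 (adjusted p = 0.00491), and these calls held without any 1 array. Otop2, a proton channel, fell by 0.89 (adjusted p = 0.00533; 0.0501 without PA-rich replicate 1), and Dynap fell by 1.01 (adjusted p = 0.0103), a call that ended without PA-rich replicate 1 or 2 or control replicate 2 (adjusted p = 0.065, 0.0611 and 0.0552). Nts, neurotensin, fell by 0.81 (adjusted p = 0.0441), Ly6g6c by 0.76 (adjusted p = 0.018) and Plpp1, a phospholipid phosphatase, by 0.75 (adjusted p = 0.0329). Nts lost its call without any 1 array, Plpp1 without any but control replicate 3 and Ly6g6c without any but PA-rich replicate 2 or control replicate 3, with adjusted p up to 0.226. Igfbp4 and Igfbp5, which bind insulin-like growth factors, fell by 0.56 (adjusted p = 0.0341) and by 0.61 (adjusted p = 0.027). Igfbp4 lost its call without any 1 array (adjusted p up to 0.159), Igfbp5 without any but PA-rich replicate 1 (up to 0.165), and the replicate block gave Igfbp5 an adjusted p of 0.0552.

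The lists that bear most on the neural label had few or 0 calls. With 1.18% of all genes called, 0 calls in a list this short says little about its members. Of 12 Schwann cell identity genes 0 were called (2 higher and 1 lower at an unadjusted p under 0.05) and the median was 0.03, with 6 more, S100b and Gfap among them, under the filter level. Of 8 myelin genes 0 were called (1 higher and 1 lower unadjusted) and the median was 0.05, and of 15 repair Schwann cell genes 0 were called (1 higher unadjusted). Of 29 axon guidance genes 1 rose, the secreted semaphorin Sema3c, by 0.41 (adjusted p = 0.028; up to 0.161 when 1 array was left out). Egr2, a factor of myelination and the target of a hairpin in the tumour cells of other groups, had levels of 11.66, 11.66 and 11.60 in PA-rich arrays, against 11.84, 11.84 and 11.81 in control arrays. The 2 groups were tight and did not overlap, and Egr2 differed by -0.19 (adjusted p = 0.561), with -0.24 in a further probe set. Gal, the neuropeptide galanin, had levels of 7.32, 7.08 and 7.19 in PA-rich arrays, against 7.04, 6.99 and 7.13 in control arrays, and its groups overlapped, with a difference of 0.14 (adjusted p = 0.662). The 7 EGR and NAB genes, 27 immediate early genes and 19 genes of the COMPASS and other histone methyltransferase complexes each had 0 calls, with 0, 1 and 2 members at an unadjusted p under 0.05. Of 35 oxidative phosphorylation genes 0 were called (7 lower unadjusted) while 29 were lower, with a median of -0.10 and 16 whose arrays did not overlap. Of 25 ribosomal protein genes 0 were called (3 lower unadjusted) while 23 were lower. Over all 11844 genes, 5532 were lower, 1223 of them with arrays that did not overlap.

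Whether the diet effect with PLKO differed from that with the other hairpins was tested as the PLKO effect minus the mean effect of shEGR2_40.9, shEGR2_38.9 and shGAL, which share no array with PLKO. That difference passed the threshold for 587 genes, or 4.96% of those tested, 216 of them higher and 371 lower with PLKO. The difference contains the PLKO effect, so genes called with PLKO pass it more readily, and it is no independent support for them. Of all genes tested, 3.73% rose and 5.22% fell with shEGR2_40.9, 13.8% rose and 8.3% fell with shEGR2_38.9, and 1.33% rose and 0.608% fell with shGAL. With the same sign, 0 genes were called for all 4 hairpins, and 7 had an unadjusted p under 0.05 with all 4. Of the 96 genes that fell with PLKO, 21 fell and 10 rose with shEGR2_40.9, 13 fell and 41 rose with shEGR2_38.9, and 7 fell and 5 rose with shGAL. Of the 44 genes that rose with PLKO, 5 rose and 7 fell with shEGR2_40.9, 11 rose and 8 fell with shEGR2_38.9, and 2 rose and 0 fell with shGAL. Over all genes, 65.8% were higher on the PA-rich diet with shEGR2_38.9, against 58.3% with shEGR2_40.9 and 47.8% with shGAL. Without shEGR2_38.9 control replicate 3, 10.4% of all genes rose and 8.71% fell with that hairpin, and of the 96 genes 37 rose and 13 fell. Leaving out each PLKO array in turn gave 235 to 484 genes, and leaving out shEGR2_38.9 control replicate 3 gave 944.

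Per2 and Nr1d2 stood on opposite sides with PLKO and the other hairpins. Per2, which fell by 0.73 with PLKO, differed by 0.66 with shEGR2_40.9, 0.47 with shEGR2_38.9 and 0.21 with shGAL, a difference of -1.17 (adjusted p = 5.09e-06). Nr1d2, which rose by 0.47 with PLKO, differed by -0.60, -0.38 and -0.26 with shEGR2_40.9, shEGR2_38.9 and shGAL, a difference of 0.88 (adjusted p = 9.2e-06). Of 18 cholesterol genes, 11 had a lower diet effect with PLKO and 0 a higher one, with a median difference of -0.48. Fdps differed by 0.63 with shEGR2_40.9, 0.53 with shEGR2_38.9 and 0.53 with shGAL, a difference of -0.89 with PLKO (adjusted p = 5.04e-06). Idi1, the isomerase before Fdps in the pathway, differed by -0.34 with PLKO, against 0.54, 0.54 and 0.83 with those hairpins (difference -0.97, adjusted p = 0.000389). Cyp51, a demethylase of the sterol branch, differed by -0.21 with PLKO, against 0.39, 0.41 and 0.54 (difference -0.66, adjusted p = 0.000154). Of the cholesterol list, 7 rose with shEGR2_40.9, 12 rose and 1 fell with shEGR2_38.9 and 8 rose with shGAL, and leaving out each PLKO array in turn left 6 to 9 members past the threshold of the difference, with 6 without PA-rich replicate 1 and 7 without control replicate 2 or 3.

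Of the 24 epidermal barrier genes, 12 had a lower diet effect with PLKO, with a median difference of -0.64 and 9 to 12 left when 1 PLKO array was left out. The median difference was -0.38 without control replicate 1 and -0.47 without PA-rich replicate 1. The other hairpins did not share 1 direction: 14 of these genes rose with shEGR2_38.9, 4 fell with shEGR2_40.9 and 0 were called with shGAL (4 higher and 1 lower at an unadjusted p under 0.05). Sdr9c7, which fell by 0.76 with PLKO, differed by -0.11 with shEGR2_40.9, 1.83 with shEGR2_38.9 and 0.33 with shGAL (difference -1.45). Dsc1 differed by -0.75, 1.37 and 0.39 with those hairpins (difference -1.48). Of the 30 interferon genes, 5 had a lower effect with PLKO, while 9 rose and 1 fell with shEGR2_40.9, 8 rose and 4 fell with shEGR2_38.9 and 1 rose with shGAL. Endothelial markers, of which 0 were called with PLKO, fell for 17 of 21 genes with shEGR2_40.9, for 18 with shEGR2_38.9 and for 0 with shGAL (2 higher unadjusted), and 7 of them had a higher effect with PLKO.

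Of 18 acute phase and innate defence genes, 3 fell with PLKO, 9 fell with shEGR2_40.9, 9 fell and 1 rose with shEGR2_38.9, and 1 rose with shGAL, and the median difference was 0.07. Lcn2, which fell by 1.25 with PLKO, fell by 0.65 with shEGR2_40.9 (adjusted p = 0.0124) and fell by 0.63 with shEGR2_38.9 (adjusted p = 0.00719), and differed by 0.59 with shGAL (adjusted p = 0.0638). Serpina3n fell by 0.49 with shEGR2_40.9 (adjusted p = 0.00071) and differed by -0.15 with shEGR2_38.9 and 0.15 with shGAL. Acod1 fell by 1.13 with shEGR2_38.9 (adjusted p = 0.00344), and its difference between PLKO and the others did not pass the threshold (-0.97, adjusted p = 0.0725). Rsad2, an interferon gene, fell by 0.53 with shEGR2_40.9 (adjusted p = 0.0244) and fell by 1.59 with shEGR2_38.9 (adjusted p = 5.8e-08), with a difference of -0.30 (adjusted p = 0.388). Mrc1, Nts, Plpp1 and Sostdc1 were called with PLKO, shEGR2_40.9 and shEGR2_38.9, each with 1 sign. Mrc1 differed by -0.70 with PLKO, against -2.35, -2.26 and -0.01 with shEGR2_40.9, shEGR2_38.9 and shGAL. With those hairpins Nts differed by -1.63, -1.85 and 0.14, Plpp1 by -1.48, -1.61 and 0.44, and Sostdc1 by 1.26, 0.43 and -0.23. For Nts, Plpp1 and Sostdc1 the difference between PLKO and the others did not pass the threshold. Without shEGR2_38.9 control replicate 3, the members called with that hairpin were 10 lower and 1 higher of the acute phase list, 13 higher of the barrier list, 11 higher and 1 lower of the cholesterol list, 8 higher and 5 lower of the interferon list, and 19 lower of the endothelial list.

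The largest differences between PLKO and the other hairpins were Tchh (-2.05), Lgi2 (-1.64), Il33 (-1.54), Dynap and Dsc1 (both -1.48) on the lower side, and Galnt15 (1.90), Scn3a (1.5), Adam12 (1.45), Pxdn (1.43) and Rassf4 (1.41) on the higher side. For Galnt15, Scn3a, Adam12 and Pxdn the PLKO effect itself was not called, at 0.44, -0.39, 0.10 and 0.43. Nor was it called for Lgi2, at -0.58 (limma adjusted p = 0.0534), or for Il33, at -0.43 (adjusted p = 0.246). Il33 encodes an alarmin cytokine of epithelium and stroma, Scn3a a sodium channel subunit, and Adam12 a membrane-bound metalloprotease.

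**Figure D5:**
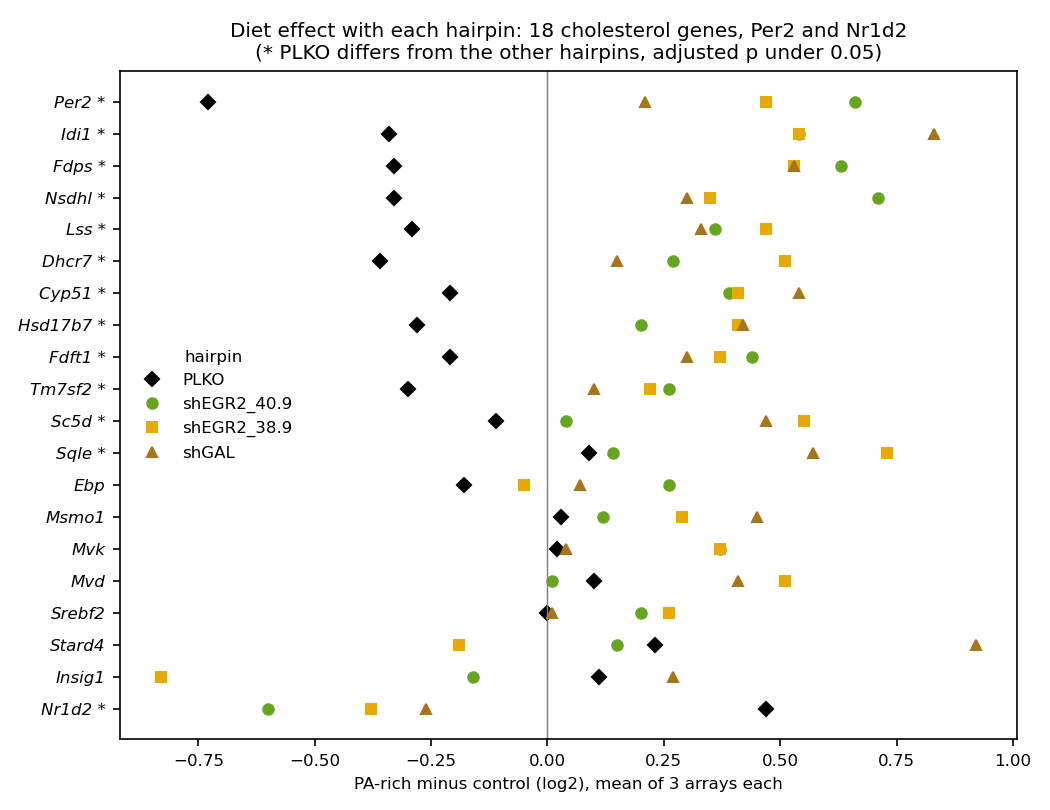
PA-rich minus control difference on the log2 scale (horizontal axis) for named genes with PLKO and with shEGR2_40.9, shEGR2_38.9 and shGAL, with 1 marker per hairpin and an asterisk where the difference between PLKO and the others passed the threshold. Per2 lay at -0.73 with PLKO and at 0.66, 0.47 and 0.21 with the other hairpins.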

How the data were processed

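Total RNA of the mouse cells had been amplified and hybridised to Affymetrix arrays. The authors deposited log2 expression values, and the submitters' processing notes name RMA and affy for them, without versions. Values ran from 3.91 to 13.6, no 2 arrays were identical, and no sample was left out. Of 45141 probe sets, 28898 had 1 gene symbol and were used. Each of 17097 genes was read from its brightest probe set, by the mean over 24 arrays, and those under the 40th percentile (6.273) were left out, which kept 11844. Arrays have no count depth, so their number limits the precision.

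The tests used limma 3.58.1 (R 4.3.3) and 1 model of 8 group means over 24 arrays, with two-sided moderated tests, 16 residual degrees of freedom and Benjamini-Hochberg adjustment over 11844 genes. The text names the 20 largest rises and 20 largest falls past the threshold with 1 sign in every replicate number, the called members of the lists, Egr2 and Gal, and for the difference from the other hairpins the 5 largest values each way. Other members of a list stand with their values and without a verb of change. The members, the gene lists and the comparisons were chosen with earlier results of these data known.

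The labels pair the PLKO arrays by scan batch. Deviations of same-numbered arrays from their group means correlated at -0.027, 0.011 and 0.129. Alternatives were the replicate block, the 6 PLKO arrays alone, other filters on dim probe sets, a further quantile normalization, the mean over probe sets, another variance prior, and leaving out each PLKO array or shEGR2_38.9 control replicate 3. List counts, named-gene differences and shEGR2_38.9 counts under these settings were chosen after seeing the data. Promoter windows are from RefSeq, build GRCm38.p6, and both strands were searched. Python 3.11.15 with pandas 2.3.3, numpy 2.4.6 and matplotlib 3.10.9 wrote the tables and figures. Genes without a probe set of their own were not analysed here.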

Additional observations from a re-analysis of the deposited data

Results flagged for a closer look

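For these genes the diet effect (PA-rich minus control, log2) with PLKO differed from the mean diet effect of shEGR2_40.9, shEGR2_38.9 and shGAL at an adjusted p under 0.05 in limma, and each value is that difference. It contains the PLKO effect by which most of these genes were named, so it is no independent support for that effect. Among genes that rose with PLKO, it was 1.41 for Rassf4, 1.28 for Mid1, 1.30 for Mmp13, 0.95 for Has2, 0.88 for Nr1d2, 0.64 for Lpin2, 0.56 for Kcnj13, 0.50 for Acta2, 0.46 for Tnc, 0.43 for Sema3c and 2610311E24Rik, 0.41 for Thsd4, 0.35 for Angptl1 and 0.33 for Fads2. Of these, Has2 fell by 1.13 with shEGR2_40.9 and differed by 0.19 with shEGR2_38.9 and 0.30 with shGAL. Rassf4 and Acta2 fell by 0.61 and 0.52 with shEGR2_38.9. With shEGR2_40.9 and shEGR2_38.9, Nr1d2 fell by 0.60 and 0.38, and Kcnj13 by 0.25 and 0.30.

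Among the interferon and innate defence genes that fell with PLKO, the difference was -1.19 for Ifit1, -1.13 for Ifih1, -1.02 for Lcn2, -0.97 for Il1r2 and -0.89 for Serpina3n, although Lcn2 also fell with shEGR2_40.9 and shEGR2_38.9 and Serpina3n with shEGR2_40.9. Among the epidermal and hair genes that fell, it was -2.05 for Tchh, -1.48 for Dsc1, -1.45 for Sdr9c7, -1.23 for Alox12b, -1.07 for Hoxc13, -0.92 for Sprr1b, -0.91 for Abca12, -0.85 for Krtdap, -0.67 for Sprr1a and -0.54 for Dlx3. Of these, Dsc1, Alox12b, Sprr1b and Sprr1a also fell with shEGR2_40.9, by 0.75, 0.56, 0.58 and 0.74. With shEGR2_38.9 they rose, by 1.37, 1.45, 1.25 and 0.92. Dlx3 also fell by 0.66 with shGAL and rose by 0.47 with shEGR2_38.9. Among the lipid genes that fell, it was -0.89 for Fdps, -0.79 for Acer1, -0.69 for Scd1, -0.65 for Me1 and -0.61 for Sptlc3. Me1 also fell by 0.27 with shEGR2_40.9 and rose by 0.77 with shEGR2_38.9. Per2 had -1.17 and Xbp1 -0.45. The other falls had -1.48 for Dynap, -1.10 for Ly6g6c, -1.0 for Gm9706, -0.94 for Otop2, -0.89 for Celf2 and -0.71 for Tubb3. Ly6g6c also fell by 0.63 with shEGR2_40.9 and rose by 1.36 with shEGR2_38.9. Mrc1, which fell with PLKO, had a positive difference of 0.84. Mrc1 also fell with shEGR2_40.9 and shEGR2_38.9, and further than with PLKO.

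Among genes not called with PLKO, the difference was 1.90 for Galnt15, 1.5 for Scn3a, 1.45 for Adam12, 1.43 for Pxdn, -1.54 for Il33 and -1.64 for Lgi2.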

How the results depend on the processing

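With scan batch as the replicate block, 153 genes were called (47 higher, 106 lower), 125 of them among the 140, and the difference from the other hairpins held for 645 genes. The 6 PLKO arrays alone gave 70 calls (14 higher, 56 lower), and with the replicate block 11 (1 higher, 10 lower). Leaving out 1 PLKO array gave 56 to 94 calls, with 15 to 31 higher and 41 to 66 lower, and 235 to 484 genes for the difference, with 88 to 178 higher and 147 to 330 lower. Without shEGR2_38.9 control replicate 3 there were 269 calls (91 higher, 178 lower) and 944 genes for the difference (374 higher, 570 lower). An adjusted p under 0.01 left 6 genes beyond 1 on the log2 scale. Counts under the other filters, the further normalization, the mean over probe sets and the other variance prior stayed within 1.5 times the main count, at 138 to 179 calls. Of 64 named genes 0 changed sign, and 4 kept their call under every alternative (Lcn2, Serpina3n, Cxcl14 and Sdr9c7). The block ended the calls of Irf2bpl and Igfbp5 and of 0 other named genes. The arrays are called technical replicates, so spread between mice may be missing from every p-value.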
